A study of Mus musculus with 7 samples.

Results

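Transcripts of 10 genes of hypoxia and oxygen sensing were measured in the carotid artery of offspring of reciprocal mouse crosses. They are the hypoxia-inducible factor subunit genes Hif1a, Epas1, Arnt and Arnt2, the oxygen-dependent prolyl hydroxylase genes Egln1, Egln2 and Egln3, the mitochondrial genes Ndufa4l2 and Cox4i2, and Rgs5. Every probe set that the annotation of the Mouse 430 2.0 array assigned to exactly 1 of these symbols was taken, which gave 25 of the 45101 probe sets. All 10 genes were found, with 5 probe sets for Arnt, 4 each for Hif1a and Rgs5, 3 for Arnt2, 2 each for Epas1, Egln1 and Egln3, and 1 each for Ndufa4l2, Cox4i2 and Egln2. The probe sets were selected by gene symbol, and the 10 genes were chosen with the measured signals and their differences between the crosses already known. The difference between crosses is therefore described for these 10 genes with values and errors. Counts from a fit over all probe sets and p-values of relations to marker scores are given as description only. They are no independent test of these genes.

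All offspring were ApoE-/+, so each carried 1 null allele of the gene for apolipoprotein E. In 3 arrays the mother was wild type and normocholesterolemic and the father was ApoE-/-, and in 4 arrays the mother was ApoE-/- and hypercholesterolemic and the father was wild type. The groups are called wild-type mother and ApoE-null mother, and both parents differ between them, so effects of the mother and the father cannot be told apart. The sources used here give no strain, age, sex or litter and do not say whether different animals were used for different arrays. Standard deviations therefore measure the spread between these 7 arrays. Standard errors come from a fit that draws the spread of each probe set toward that of probe sets with similar signal. For the genes that vary most, such as Rgs5, they are smaller than these arrays alone would give. Array numbers in the labels run group by group, so a batch in that order and the cross cannot be told apart.

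Cells sense oxygen largely through hypoxia-inducible factor, a pair of an alpha subunit (from Hif1a or Epas1) and a beta subunit (from Arnt or Arnt2). With oxygen present, the EGLN enzymes hydroxylate the alpha subunit, the von Hippel-Lindau protein binds it and it is degraded. At low oxygen the alpha subunit persists and the pair binds DNA at sites with the core ACGTG or GCGTG. This step acts on the protein, which an RNA array does not measure. The carotid body at the fork of the carotid artery holds glomus cells, which sense blood oxygen and are known for high Epas1, Cox4i2, Ndufa4l2 and Rgs5 transcript levels, and Rgs5, Ndufa4l2 and Cox4i2 are also known markers of pericytes and other mural cells.

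RefSeq promoter windows of build GRCm38.p6 were held for 7 of the 10 genes. Ndufa4l2, Cox4i2 and Epas1 had no entry. The 250 bases before each start were searched on both strands for ACGTG and GCGTG, because this core is where the factor made by 4 of these genes binds. At least 1 core was found for 5 of the 7 genes, and 38.6% of the 32851 windows of all genes hold one. The windows of Egln3, which is a known target of the factor, and of Rgs5 and Arnt2, whose signals varied most between these arrays among the genes with a window, are shown whole, each on the strand of its gene, with any core in capitals. They lie at chr12:54203875-54204124 on the minus strand, chr1:169655251-169655500 on the plus strand and chr7:84410039-84410288 on the minus strand, upstream of the annotated start.
Egln3: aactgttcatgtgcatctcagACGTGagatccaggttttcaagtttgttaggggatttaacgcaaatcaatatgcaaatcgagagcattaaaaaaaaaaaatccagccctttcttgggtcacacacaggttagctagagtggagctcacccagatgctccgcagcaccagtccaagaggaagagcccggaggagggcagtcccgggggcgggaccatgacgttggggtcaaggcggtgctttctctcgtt
Rgs5: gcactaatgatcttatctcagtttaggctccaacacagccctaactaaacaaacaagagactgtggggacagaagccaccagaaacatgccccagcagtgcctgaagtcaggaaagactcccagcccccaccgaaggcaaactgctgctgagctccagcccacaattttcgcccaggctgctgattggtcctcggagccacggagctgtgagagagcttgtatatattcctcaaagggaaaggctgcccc
Arnt2: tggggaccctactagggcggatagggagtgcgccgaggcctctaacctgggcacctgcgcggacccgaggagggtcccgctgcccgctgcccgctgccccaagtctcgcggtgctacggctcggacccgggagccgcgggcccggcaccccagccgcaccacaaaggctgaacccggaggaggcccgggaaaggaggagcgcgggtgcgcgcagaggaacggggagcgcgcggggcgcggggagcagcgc

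The Egln3 window holds 1 core, ACGTG at 229 bases before the start, and the windows of Rgs5 and Arnt2 hold 0, which says only that these letters are not in these bases. The cores of the other genes are shown in stretches of 41 bases, so that their settings can be compared. They come from Egln1 (chr8:124949300-124949340, minus strand, 68 bases before the start), the upstream one of 2 Egln2 starts (chr7:27166828-27166868, minus strand, 48 bases before), Hif1a (chr12:73907714-73907754, plus strand, 135 bases before) and Arnt (chr3:95434343-95434383, plus strand, 29 bases before).
Egln1: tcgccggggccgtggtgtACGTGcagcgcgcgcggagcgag
Egln2: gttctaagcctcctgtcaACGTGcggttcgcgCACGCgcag
Hif1a: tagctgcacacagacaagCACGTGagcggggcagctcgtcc
Arnt: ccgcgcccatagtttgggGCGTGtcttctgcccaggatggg

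In Hif1a the cores of the opposite strands overlap as CACGTG, a word found in 6.02% of all windows. The Egln2 stretch holds ACGTG and, on the other strand, GCGTG. Further cores that are not shown bring the total to 2 in Egln1, 3 in Hif1a and 4 in this Egln2 window, and the window of the other Egln2 start holds 1. A match of letters is a description of the window and does not show that the factor binds there.

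Signals are MAS5 values, a linear brightness per probe set that the authors scaled to 1 target per array. Levels are not compared between genes, because each probe set has its own response. The background ceiling of an array was its highest signal among 27 probe sets for bacterial transcripts, which mouse tissue does not hold, and was 10 to 22. Of the 25 probe sets, 16 were above the ceiling on all 7 arrays and 9 on some of them. The filter on low signals (a mean above 23.6) kept 18 probe sets and at least 1 for each of the 10 genes. The artery markers Acta2, Myh11 and Tagln of smooth muscle had signals of 9491.8 to 13536, 4449.5 to 6050.5 and 5670.6 to 7715.7, so arterial smooth muscle was present on every array. Wild-type mother 2 stood apart, with skeletal muscle genes (Tnnc2 at 525.8 against 7.9 to 23.4 elsewhere), a Xist signal of 41.2 against 5174.1 to 5930.9, and the highest ratio of 3 prime to 5 prime Gapdh signal, 7.80. The lowest brown fat score was on wild-type mother 3. Values that changed most with 1 of these arrays are given with and without it.

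**Figure D1:**
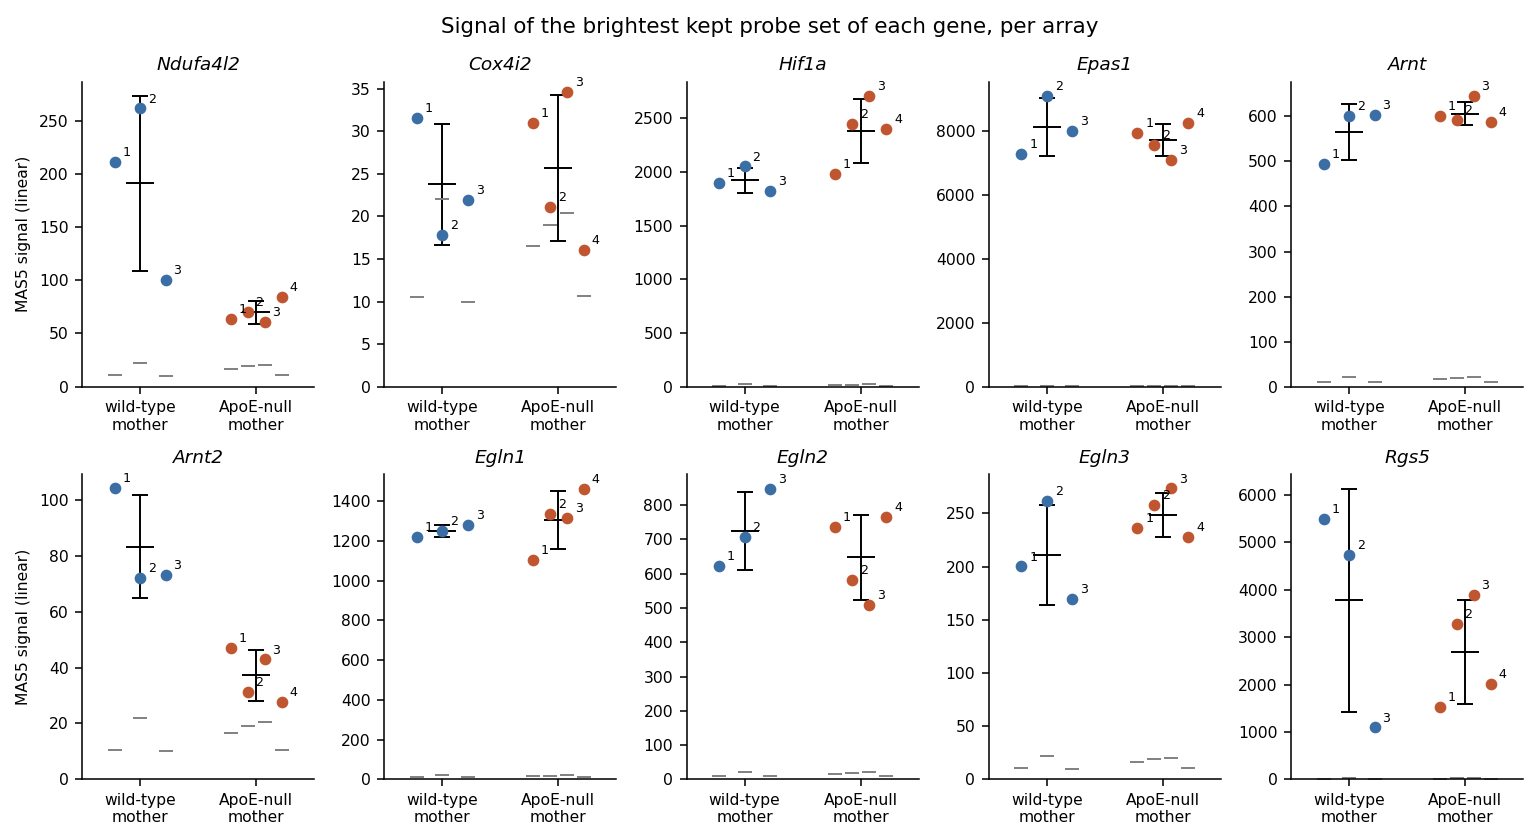
MAS5 signal (linear axis from 0) of the brightest kept probe set of each of the 10 genes on each array, for 3 wild-type mother arrays (blue) and 4 ApoE-null mother arrays (orange), numbered by replicate, with the group mean and SD as black bars and the background ceiling of each array as a grey dash. Ndufa4l2 and Arnt2 do not overlap between groups, Cox4i2 has the lowest signals and falls below the ceiling on wild-type mother 2, and Rgs5 spreads from 1095.1 to 5501.9.

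Ndufa4l2 encodes a mitochondrial protein related to a cytochrome c oxidase subunit, is a known target of hypoxia-inducible factor and lowers mitochondrial oxygen use. Its signals were 211.4, 261.7 and 100.6 on the arrays of wild-type mother 1, 2 and 3, and 63.4, 70.5, 61.1 and 84.3 on those of ApoE-null mother 1 to 4. All wild-type mother arrays lay above all ApoE-null mother arrays, the nearest being wild-type mother 3 and ApoE-null mother 4. The means were 191 ± 82.4 (SD, n = 3) and 69.8 ± 10.4 (SD, n = 4), a log2 difference of -1.33 with a standard error of 0.29, or 2.52-fold higher with a wild-type mother. Differences here are those of log2(signal + 2), ApoE-null mother minus wild-type mother, which understate changes of weak probe sets. Leaving out wild-type mother 2 gave -1.05, and leaving out wild-type mother 3 gave -1.73. In the dissected tissue, fewer cells that express a gene and less RNA per cell cannot be told apart.

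Arnt2 encodes the beta subunit that is known mainly from neurons. Its brightest probe set had signals of 104.4, 72.0 and 73.2 with a wild-type mother against 46.9, 31.2, 42.9 and 27.7 with an ApoE-null mother. The groups did not overlap, and every value was above the background ceiling of its array. The means were 83.2 ± 18.4 (SD, n = 3) and 37.2 ± 9.18 (SD, n = 4), with a log2 difference of -1.13 and a standard error of 0.27, or 2.19-fold higher with a wild-type mother. The difference was -1.25 to -0.96 when each array was left out. A weaker Arnt2 probe set, 1420670_at, was at 17.9, 23.6 and 17.7 with a wild-type mother against 3.8 to 11.3 with an ApoE-null mother. Its groups did not overlap either, but it was below the ceiling on all 4 ApoE-null mother arrays, so that group has only an upper bound. The third Arnt2 probe set, 1420669_at, was above the ceiling on 2 of 7 arrays and overlapped between groups, at 10.4 to 13.3 and 5.7 to 14.8. Neither weak probe set passed the filter.

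Of the 18 kept probe sets, these 2 were lower without overlap with an ApoE-null mother, 0 were higher without overlap and 16 overlapped. Over all 27027 probe sets tested, 4.01% were lower without overlap and 4.01% higher, 8.02% together. Over the 12713 genes tested by their brightest probe set it was 4.24% and 4.34%, 8.58% together. In the fit over all probe sets with limma, 0 of the 18 passed an adjusted p of 0.05, where 0.0037% of all probe sets did. At an unadjusted p under 0.05 there were 3 (Ndufa4l2, Arnt2 and 1 probe set of Hif1a), where 8.25% of all probe sets were. The genes were chosen with results of this contrast known, so nothing is read from these counts. By brightest probe set 5 of the 10 genes had a positive and 5 a negative difference, where 48.8% of all genes tested were positive, and the median was -0.01, as it was over all genes tested.

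**Figure D2:**
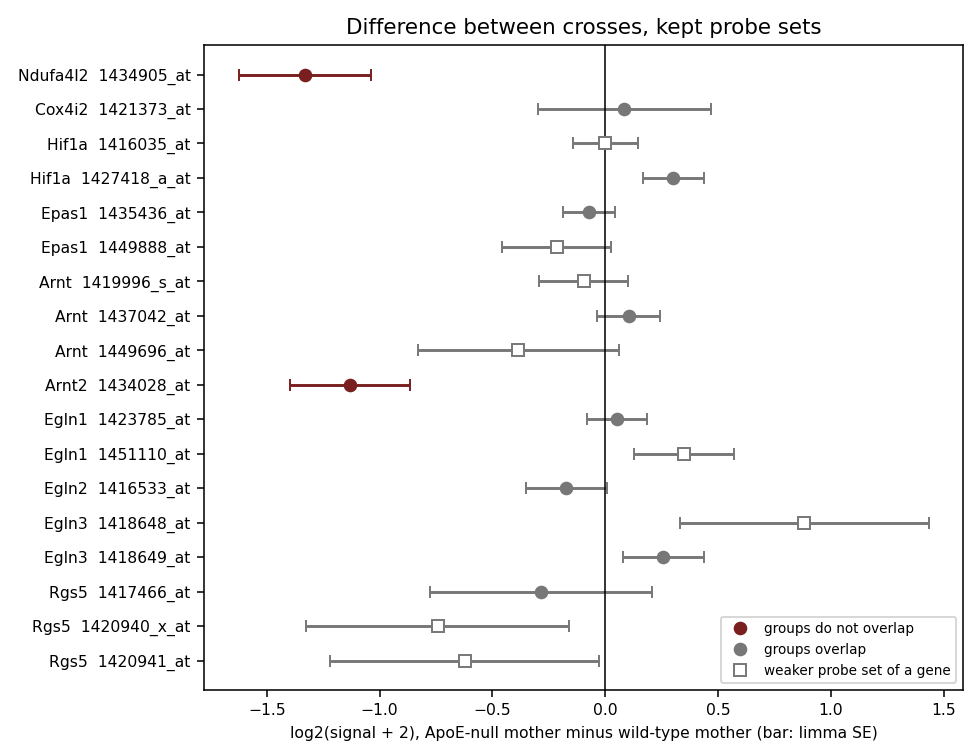
Difference in log2(signal + 2) between the crosses, ApoE-null mother minus wild-type mother, for the 18 kept probe sets, with bars of 1 standard error from the limma fit. Filled circles are the brightest probe set of a gene and open squares weaker ones, and the probe sets of Ndufa4l2 and Arnt2, in dark red, are those whose groups do not overlap.

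The alpha subunit genes had smaller differences. Hif1a, which encodes the broadly expressed alpha subunit, had signals of 1896.4, 2050.9 and 1819.4 with a wild-type mother against 1982.1, 2443.7, 2704.7 and 2402.7 with an ApoE-null mother on probe set 1427418_a_at. The array of ApoE-null mother 1 lay inside the wild-type mother range and the other ApoE-null mother arrays above it. The means were 1922 ± 118 (SD, n = 3) and 2383 ± 299 (SD, n = 4), a log2 difference of 0.30 with a standard error of 0.14. The other strong Hif1a probe set, 1416035_at, did not show this, with 1191.9 to 1293.7 against 1039.5 to 1454.6 and a log2 difference of 0.00069 with a standard error of 0.14. The array of ApoE-null mother 4 was the lowest of all 7 on 1416035_at and the third highest on 1427418_a_at, so the Hif1a probe sets disagreed on single arrays. The remaining 2 Hif1a probe sets had signals of 2.6 to 25.3 and 3.2 to 23.5, around the background ceiling.

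Epas1, whose product is the alpha subunit known for endothelium and for oxygen-sensing cells, was steady. Its bright probe set had signals of 7286, 9105.8 and 8012 with a wild-type mother against 7960.1, 7568.5, 7096.9 and 8277.5 with an ApoE-null mother. The groups overlapped, with a log2 difference of -0.07 and a standard error of 0.12. The highest value was on wild-type mother 2, without which the difference was 0.014. The weaker Epas1 probe set had 73.1 to 104.5 against 57.9 to 97.1 and a log2 difference of -0.22 with a standard error of 0.24. Over the 7 arrays the bright Epas1 probe set varied less than most genes: 5.54% of the genes tested had a smaller SD of log2 signal.

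Arnt, the gene of the general beta subunit, was also steady on its brightest probe set. The signals were 493.8, 601.3 and 602.9 with a wild-type mother against 600.5, 592.0, 645.4 and 587.8 with an ApoE-null mother, and 4.96% of the genes tested had a smaller SD. Wild-type mother 1 was the lowest and the other 6 lay within 587.8 to 645.4. The log2 difference was 0.10 with a standard error of 0.14. Probe set 1419996_s_at had 187.5 to 276.7 against 163.0 to 253.7, and 1449696_at had 41.3 to 156.0 against 29.7 to 94.1, with negative differences of -0.10 and -0.38 and standard errors of 0.20 and 0.45. The 2 other Arnt probe sets did not pass the filter and were above the ceiling on 3 and 4 of 7 arrays. The sign for Arnt thus depended on the probe set.

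The prolyl hydroxylases are the oxygen sensors of the pathway. Egln1, known as the main enzyme that keeps hypoxia-inducible factor low in normal oxygen, had signals of 1219.4, 1251.9 and 1278.9 with a wild-type mother against 1106.3, 1334.4, 1313.9 and 1462.1 with an ApoE-null mother. The log2 difference was 0.05 with a standard error of 0.13, and the ApoE-null mother arrays spread to both sides of the wild-type mother range. The weaker Egln1 probe set had 83.3 to 142.4 against 115.2 to 162.5 and a difference of 0.35 with a standard error of 0.22. Egln2 had 622.7, 706.6 and 847.8 against 737.6, 580.8, 508.2 and 764.6, with a log2 difference of -0.17 and a standard error of 0.18. Its lowest signals were on the arrays of ApoE-null mother 3 and 2.

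Egln3 is a hydroxylase gene that the factor itself induces. Its signals were 200.1, 261.8 and 169.9 with a wild-type mother against 236.2, 257.7, 273.5 and 227.5 with an ApoE-null mother. Wild-type mother 2 lay among the ApoE-null mother arrays and the other wild-type mother arrays below them. The log2 difference was 0.26 with a standard error of 0.18, and it became 0.42 or 0.12 when wild-type mother 2 or 3 was left out. The weaker Egln3 probe set was at 45.4, 8.1 and 44.4 against 88.6, 60.3, 42.2 and 26.9. Its log2 difference of 0.88 with a standard error of 0.55 rested on wild-type mother 2, where it was below the ceiling, and was 0.14 without it. Ndufa4l2 and Egln3, both known targets of the factor, had differences of opposite sign.

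Cox4i2 encodes the subunit isoform of cytochrome c oxidase that glomus cells use in oxygen sensing. Its signals were 31.6, 17.8 and 21.9 with a wild-type mother against 31.0, 21.1, 34.6 and 16.1 with an ApoE-null mother. The signal was below the ceiling on wild-type mother 2 (17.8 against 22), just above it on ApoE-null mother 2 (21.1 against 19) and highest above it on wild-type mother 1 (31.6 against 10.5). The groups overlapped, with a log2 difference of 0.08 and a standard error of 0.38. Cox4i1, the general isoform, had signals of 6677.5 to 9095 and a log2 difference of -0.0067 with a standard error of 0.12. Ndufa4, the relative of Ndufa4l2 that sits in the complex, had 2454.4 to 4634.9 and a difference of 0.011 with a standard error of 0.20. The lower Ndufa4l2 signal with an ApoE-null mother was thus not accompanied by a difference of that size in Ndufa4. The Cox4i2 signals, 16.1 to 34.6 beside ceilings of 10 to 22, left little room for a decrease of that size. Whether the difference of Ndufa4l2 differs from theirs was not tested.

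Rgs5 varied more than any other of the 10 genes, and its variation ran within the groups. Its product ends signalling by G protein-coupled receptors, and the protein is degraded when oxygen oxidises its amino-terminal cysteine through the enzyme from Ado. The brightest probe set had signals of 5501.9, 4727.4 and 1095.1 with a wild-type mother against 1533.2, 3285.3, 3887.9 and 2010.3 with an ApoE-null mother. The highest and the lowest of all 7 arrays were in the wild-type mother group, 5.02-fold apart. The means were 3775 ± 2353 (SD, n = 3) and 2679 ± 1094 (SD, n = 4), and the log2 difference of -0.29 had a standard error of 0.49. It became 0.14, 0.029 or -1.03 when wild-type mother 1, 2 or 3 was left out, so no direction can be given from this probe set. The weaker Rgs5 probe sets 1420941_at and 1420940_x_at had 1307.1, 589.4 and 123.5 against 195.7 to 397.9, and 323.5, 215.8 and 38.4 against 54.3 to 118.9. They placed wild-type mother 1 and 2 highest and wild-type mother 3 lowest as well. The fourth probe set had signals of 7.8 to 42.7 and did not pass the filter. Of the genes tested, 96.6% had a smaller SD over the arrays than Rgs5, 96.3% a smaller one than Ndufa4l2 and 94.0% a smaller one than Arnt2.

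The order of the arrays by Rgs5 was close to their order by genes of glomus cells and sympathetic neurons. Of 13 such marker genes, 10 were measured, and a score per array was the mean of their log2 deviations from the mean of the 7 arrays. The score was 1.96, 0.27 and -1.52 for wild-type mother 1 to 3, and -0.94, 0.26, 0.88 and -0.91 for ApoE-null mother 1 to 4. Within the wild-type mother group both Rgs5 and the score placed the arrays in the order 1, 2, 3, and within the ApoE-null mother group both gave the order 3, 2, 4, 1. Ddc and Th, enzymes of dopamine synthesis, had signals of 2976.9 and 687.5 on wild-type mother 1 and of 60.7 and 27.1 on wild-type mother 3. Over the 7 arrays Pearson's r was 0.93 (exact permutation p = 0.00258) and Spearman's rho was 0.96 (exact permutation p = 0.00278), two-sided. After Benjamini-Hochberg adjustment over 20 relations (10 genes against 2 marker lists) the exact permutation p-values were 0.0516 and 0.0556, so the relation did not pass. The genes, the marker lists and the relations were all chosen with these signals known, so the p-values of these relations describe these arrays and are no independent evidence. Without the 2 arrays farthest from the median score, wild-type mother 1 and 3, r was 0.89. When each array was left out in turn, r was 0.90 to 0.97. With the mean of each group removed, r was 0.93, and its exact permutation p of 0.00694 is the smallest that the 144 pairings within groups can give (0.139 after adjustment over 20 relations).

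The 3 other Rgs5 probe sets had r of 0.92, 0.92 and 0.67 with the glomus cell score, which became 0.75, 0.71 and 0.61 without wild-type mother 1 and 3. The probe set with the lowest of these values, 1420942_s_at, was above the ceiling on 5 of 7 arrays. Single markers of the list differed in Spearman's rho with Rgs5 over the 7 arrays. It was 1 for Chgb, which encodes a protein of secretory granules, 0.93 for Ddc, 0.89 for Th and Chga, 0.86 for Ret and 0.82 for Hand2. It was 0.77 for Dbh, 0.64 for Slc18a2, 0.46 for Kcnk3 and 0.14 for Slc18a1. Of the list, Slc18a2, the vesicular monoamine transporter gene, was at or below the ceiling on 3 of 7 arrays and Dbh on 1 of 7, and no marker was at 0. The summed signal of the 10 markers was 733.1 to 7498.3 with a wild-type mother against 1107.1 to 3113.2 with an ApoE-null mother, so the groups overlapped. Hand2 and Kcnk3 are also expressed in other tissues. The part of such cells in the Rgs5 signal was not tested.

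Rgs5 did not rise with the pericyte markers. Of 10 such genes 9 were measured, and r between their score and Rgs5 was -0.27 (exact permutation p = 0.547, adjusted 0.657) with a rho of -0.07 (exact permutation p = 0.906), while without the arrays of wild-type mother 3 and ApoE-null mother 3 r was 0.63. With the mean of each group removed r was -0.91 (exact permutation p = 0.0278, adjusted 0.139), so within the groups the arrays with more Rgs5 had lower pericyte scores. Between the crosses 8 of the 9 differences were negative, with a median log2 difference of -0.20 (-0.38 or -0.41 when wild-type mother 1 or 2 was left out). The score was 0.11, 0.09 and 0.25 for wild-type mother 1 to 3 and ran from -0.21 to -0.04 over the ApoE-null mother arrays, so the groups did not overlap. The summed signals were 10205.6 to 12244.8 and 8914.3 to 10891.5. Cspg4, a proteoglycan gene of pericytes, had signals of 1933.2 to 2398 against 1344.6 to 1827.2, whereas Abcc9 and Pdgfrb overlapped, at 3033.4 to 3464.6 against 2931.4 to 3457.5 and 1956.5 to 3252 against 1978.3 to 2345.8. None of the 9 passed in limma at an adjusted p of 0.05. At an unadjusted p under 0.05, 3 of them were lower and 0 higher, where 4.22% and 4.43% of all genes tested were. Both the pericyte score and the signals of Ndufa4l2 and Arnt2 separated the groups. Over the 7 arrays r of the score was 0.64 with Ndufa4l2 (exact permutation p = 0.137, rho 0.82 with p = 0.0341, adjusted 0.392 and 0.192) and 0.73 with Arnt2 (exact permutation p = 0.0685, adjusted 0.228). Without the 2 farthest arrays r was 0.92 and 0.89. With the mean of each group removed r was -0.45 and -0.29 (exact permutation p = 0.410 and 0.576), so the positive relations were between the groups and not within them. None of the 9 markers was at 0. Smooth muscle markers were negative for 7 of the 8 measured, with a median of -0.09. Their summed signals were 24930.2 to 32707.1 against 25779.8 to 32016.3. Without wild-type mother 3 the smooth muscle median was 0.02, with 6 positive and 2 negative. Schwann cell markers also had negative differences, for 4 of the 4 measured of 6, with a median of -1.13 (-0.62 without wild-type mother 3) and summed signals of 5341.8 to 9085.5 against 4079.2 to 6758.8. Thymocyte markers ran the other way, with 6 of the 6 measured of 7 positive and none at 0. Their summed signals were 52.6 to 146.6 against 398.3 to 661.5. Rag1, Dntt and Themis, the 3 brightest, were above the background ceiling on 6, 5 and 7 of 7 arrays, and the rest on 5, 4 and 4. Thymocyte signals below the ceiling were all on wild-type mother arrays. Erythroid markers were positive for 2 of the 2 measured of 4, with a median of 0.98 and summed signals of 276.7 to 636.1 against 492 to 1201.1. Skeletal muscle markers were negative for 7 of the 7 measured of 8, with a median of -1.49 and summed signals of 178.9 to 2024.3 against 138.1 to 208.3. Without wild-type mother 2, 4 of them passed the filter, with a median of -0.24. Tnnc2, Pvalb and Acta1, the 3 brightest, were above the ceiling on 5, 7 and 5 of 7 arrays, and the rest on 3 to 7. The part of these cell types in the differences of Ndufa4l2 and Arnt2 was not tested.

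**Figure D3:**
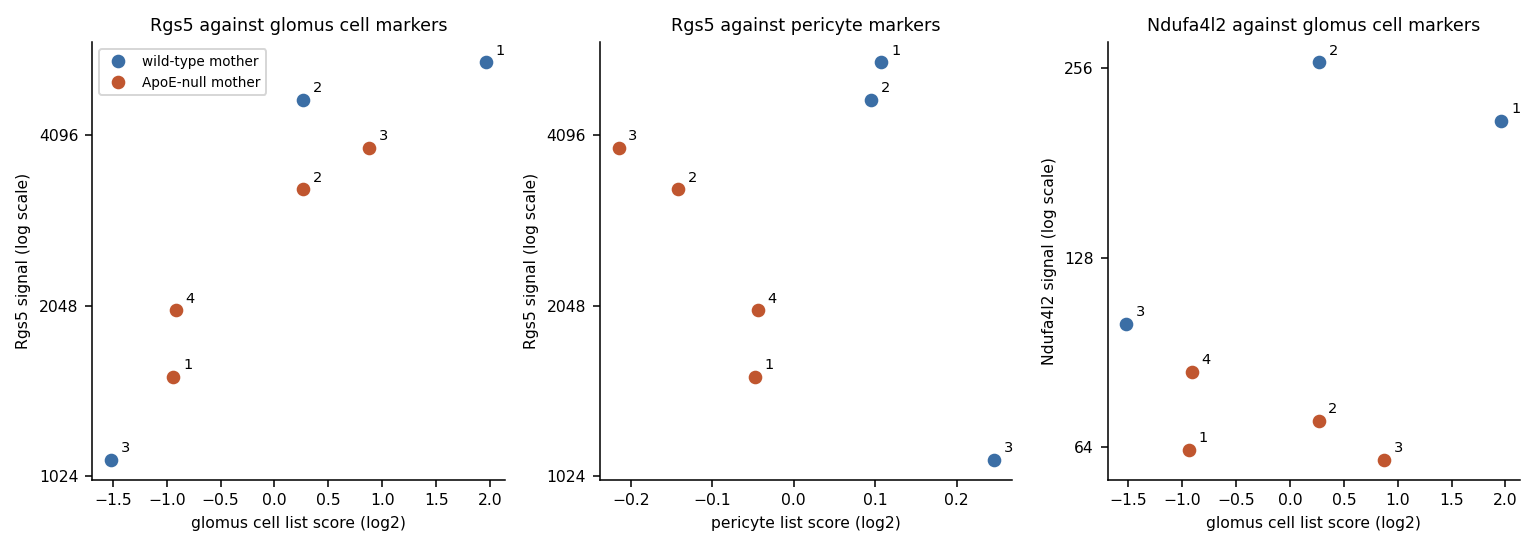
Signal of Rgs5 (log axis) against the score of the glomus cell and of the pericyte marker lists, and signal of Ndufa4l2 (log axis) against the glomus cell score, for each of 7 arrays numbered by replicate, with wild-type mother in blue and ApoE-null mother in orange. Rgs5 climbs with the glomus cell score across both groups (r = 0.93) and Ndufa4l2 is higher on each wild-type mother array than on any ApoE-null mother array.

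Ndufa4l2 did not order the arrays by the glomus cell score. Its r was 0.42 (exact permutation p = 0.342, adjusted 0.569) and 0.14 without the 2 arrays farthest from the median score, and the ApoE-null mother arrays stayed between 61.1 and 84.3 while their scores ran from -0.94 to 0.88. Besides Rgs5, the exact permutation p of r without adjustment was under 0.05 for Egln2 with the glomus cell score (r = -0.76, exact permutation p = 0.0472), and for Hif1a (r = -0.90, exact permutation p = 0.00675) and Egln3 (r = -0.81, exact permutation p = 0.0238) with the pericyte score. Their adjusted exact permutation p-values were 0.228, 0.0675 and 0.159. Without the 2 farthest arrays r was -0.87, -0.76 and -0.41, so that of Egln3 rested partly on those arrays. With the mean of each group removed, r was -0.91, -0.75 and -0.80 for these relations (exact permutation p = 0.0139, 0.0694 and 0.0486, adjusted 0.139, 0.231 and 0.194). Egln2 had r of 0.74 with the pericyte score over all arrays (exact permutation p = 0.0595, adjusted 0.228). Without wild-type mother 3 and ApoE-null mother 3 this r was 0.15, so it rested largely on those arrays. With the group means removed it was 0.95 (exact permutation p = 0.0208, adjusted 0.139). Among the 20 relations with group means removed, 0 passed after adjustment.

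The genes whose profile over the 7 arrays was most like that of a member were listed by Pearson's r of log2(signal + 2) over all named genes tested. For Rgs5 they were Bmp2 (0.98), Mrps22 (0.98), Sh3bgrl2 (0.98), Scg2 (0.97) and Chgb (0.97). Scg2 and Chgb encode granins, proteins of the secretory granules of neuroendocrine cells, and Scg2 had signals of 230.8, 109.0 and 15.6 with a wild-type mother against 25.2, 58.2, 93.3 and 27.2 with an ApoE-null mother. For Ndufa4l2 the closest were Snapc4 (0.99), Stox2 (0.98), Dipk1b (0.98), Ctr9 (0.98) and Ttll12 (0.96). For Arnt2 they were Tppp3 (0.97), Slc22a18 (0.97), Fhl2 (0.96), Tm7sf2 (0.96) and Prss12 (0.96). For Cox4i2, which was below the ceiling on 1 array, they were Zfp418 (0.99), Papolg (0.98), Armc7 (0.96), Bcar3 (0.96) and Nipsnap3b (0.96). These are the highest of 12713 genes over 7 arrays, and they are a description with no test.

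Other genes of the pathway had differences in either direction. Of 20 genes of partners, degradation and cofactors of the factor, 17 were measured and 0 passed in limma at an adjusted p of 0.05, where 0.00787% of all genes tested did. At an unadjusted p under 0.05 there were 2 (11.8%), against 8.65% of all genes tested, with 9 positive and 8 negative differences and a median of 0.0029. Cited2, a target of the factor that competes with it for its coactivators, had the smallest p of the list, with 522.9, 252.3 and 334.0 against 524.1, 700.1, 658.6 and 517.1 and a log2 difference of 0.75 (standard error 0.23, adjusted p = 0.508 in limma). Wild-type mother 1 lay inside the range of the other group. Ahr, which encodes another partner of ARNT, had 635.0, 424.3 and 739.2 against 411.7, 333.9, 509.7 and 283.1 (-0.64, limma adjusted p = 0.550), with overlap. Eloc, a subunit gene of the von Hippel-Lindau ligase, had a difference of 0.38 (limma, adjusted p = 0.615). Vhl itself had 209.3 to 281.5 against 222.6 to 296 and a difference of 0.03.

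Glycolytic target genes of the factor were measured for 16 of 19 genes, with 11 positive and 5 negative differences and a median log2 difference of 0.13, beside -0.01 over all genes tested. None passed in limma at an adjusted p of 0.05. At an unadjusted p under 0.05 there were 2 of 16 (12.5%), beside 8.65% of all genes tested. Pfkfb3, which makes the activator of phosphofructokinase, had signals of 461.7, 297.0 and 366.9 against 566.5, 586.7, 1060.3 and 605.3, without overlap (log2 difference 0.88, standard error 0.24, limma adjusted p = 0.459). Pgam1 did not overlap either, at 970.4 to 1111.5 against 1172.9 to 1335.7 (0.30, limma adjusted p = 0.594). These 2 of 16 genes were higher without overlap, where 4.34% of all genes tested were. Ldha, the lactate dehydrogenase gene, had 2336.8 to 3338.3 against 3106.8 to 3773.2 (0.29, limma adjusted p = 0.631), with overlap. Slc2a1, the glucose transporter gene, had a difference of -0.18. The most negative difference of the list was that of Aldoc, an aldolase gene, at -1.08 with a standard error of 0.78, with 306.8 on wild-type mother 1 and 11.8 to 92.5 on the other arrays. Of the brown fat markers 6 of 6 had positive differences and 0 passed, with a median of 0.70 and summed signals of 2251.8 to 9510.8 against 7521.1 to 11826.9, and none at 0. Without wild-type mother 3 the median was 0.06, with 3 positive and 3 negative. Ucp1, the brightest, had 1447.5, 2297.1 and 420.1 against 3146.6 to 5059.5, without overlap (log2 difference 1.88, standard error 0.44, limma adjusted p = 0.429). Cidea and Dio2 overlapped, at 703.8 to 4295.8 against 2321.5 to 3538.4 and 836.2 to 1615.6 against 857.6 to 1617.2. The part of brown fat in the values of the glycolytic genes was not tested. The median of the glycolytic list became 0.21 when wild-type mother 2 was left out and 0.059 when wild-type mother 3 was.

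Of 25 other targets 20 were measured, with 11 positive and 9 negative differences and a median of 0.0031. None passed in limma at an adjusted p of 0.05. At an unadjusted p under 0.05 there were 2 of 20 (10%), 1 in each direction, beside 8.65% of all genes tested. P4ha1, a collagen prolyl hydroxylase subunit gene, had signals of 359.4, 223.8 and 369.2 against 125.9, 204.0, 173.4 and 240.4, with overlap (log2 difference -0.77, standard error 0.25, limma adjusted p = 0.523). Bnip3, a gene of mitochondrial autophagy, had 1905.2, 1911.8 and 1480.5 against 1937.1, 2169.3, 2767.1 and 2250.4, without overlap (0.37, limma adjusted p = 0.593). Ankrd37 had a difference of 0.42 (limma, adjusted p = 0.646). Vegfa, the angiogenic factor, overlapped at 110 to 162 against 121.3 to 214.4. A negative difference, the sign of that of Ndufa4l2, was found for 5 of 16 glycolytic and 9 of 20 other targets. Whether their differences differ from that of Ndufa4l2 was not tested.

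**Figure D4:**
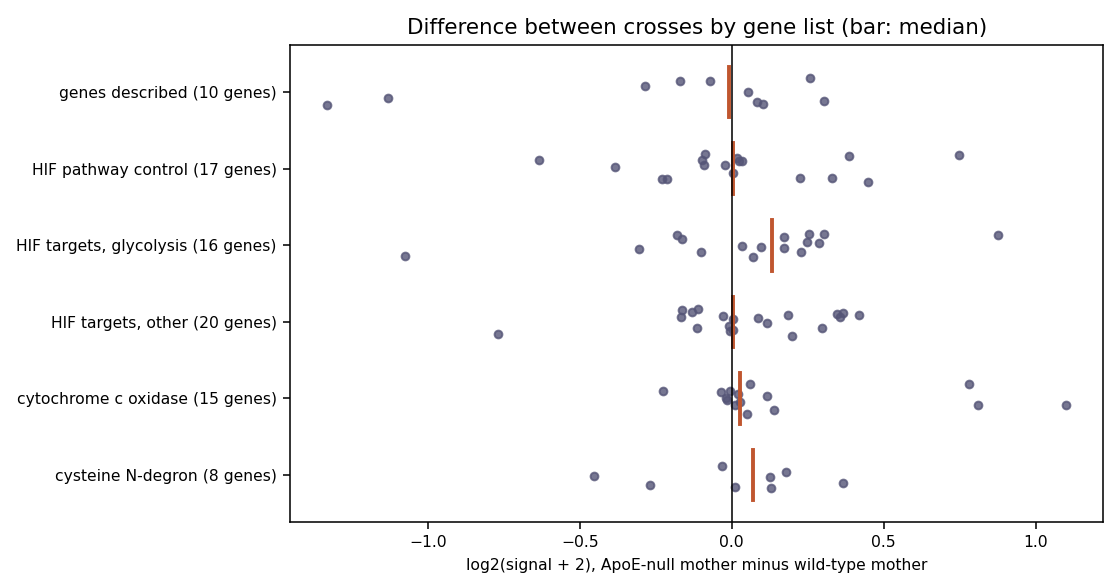
Difference in log2(signal + 2) between the crosses, ApoE-null mother minus wild-type mother, for each measured gene of the 10 genes described and of 5 related lists, with 1 point per gene and the median as an orange bar. Medians lie between -0.01 and 0.13, and the lowest 2 points of the 10 genes described are Ndufa4l2 and Arnt2.

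Of the other nuclear subunits of cytochrome c oxidase and Ndufa4, 15 of 16 were measured, with 10 positive differences and a median of 0.028. The median became -0.08, 0.29 or -0.06 when wild-type mother 1, 2 or 3 was left out. In limma 0 passed at an adjusted p of 0.05. At an unadjusted p under 0.05 there was 1 of 15 (6.67%), beside 8.65% of all genes tested. The 3 with the smallest p were Cox7c (0.81), Cox7a1 (1.10) and Cox8b (0.78) (limma, adjusted p = 0.550 to 0.744). The latter 2 are isoforms of muscle and brown fat. Cox7c was read from a weak probe set, at 34.2 to 90.3 with a wild-type mother against 76.8 to 108.1 with an ApoE-null mother. Cox7a1 was lowest on wild-type mother 3 (110.9), which also had the lowest brown fat score (-1.61), and its next lowest value was 350.8. Leaving out wild-type mother 3 gave differences of 0.34 for Cox7a1, -0.19 for Cox8b and 0.71 for Cox7c, and leaving out wild-type mother 2 gave 1.80, 1.53 and 0.53. Genes of the route that degrades RGS5 protein in an oxygen-dependent way had differences around 0, with 5 of 8 positive and a median of 0.07. None passed in limma at an adjusted p of 0.05. At an unadjusted p under 0.05 there were 2 of 8 (25%), 1 in each direction, beside 8.65% of all genes tested. Ado itself had 355.8 to 413.3 against 361.6 to 464.5 and a difference of 0.13. Rgs4, a relative of Rgs5 degraded by the same route, had 1179.7, 1066.8 and 891.9 against 1174.7, 1392.5, 1334.2 and 1479.3 (0.37, limma adjusted p = 0.573), with the order of Rgs5 over the wild-type mother arrays and another order over the ApoE-null mother arrays. The ubiquitin ligase genes Ubr2 and Ubr4 had differences of -0.45 and -0.27 (limma, adjusted p = 0.604 and 0.656).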

How the data were processed

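The deposited values are linear intensity values, MAS5 signals that the authors computed in GCOS, per the submitters' processing notes. No version is given here. Every array had a 2% trimmed mean of 200.0, so the deposited scaling was kept. No detection calls were used. Of 45101 probe sets, 34958 were annotated with exactly 1 symbol, and 0 symbols changed against a gene table of GRCm38.p6. Signals were transformed to log2(signal + 2). The 64 control probe sets and those with a mean signal at or below the 40th percentile (23.6) were left out, which kept 27027. The fit used lmFit and eBayes with an intensity trend (limma 3.58.1, R 4.3.3), p-values adjusted by Benjamini-Hochberg across the probe sets kept and a 0.05 threshold, and was tested on simulated data. A gene was represented by its brightest kept probe set. Precision is limited by 3 and 4 arrays.

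The 10 genes, the gene lists and the marker lists were chosen with earlier results of these data known. Genes were named if they were members, the 5 most correlated with Ndufa4l2, Cox4i2, Rgs5 or Arnt2 over the arrays (predicted and clone names passed over), the 3 with the smallest p of a pathway list, or the 3 brightest of a marker list. Genes named beyond that (Aldoc, Chga, Cox4i1, Dbh, Kcnk3, Ret, Slc18a1, Ndufa4, Slc18a2, Slc2a1, Th, Vegfa, Vhl, Ado and Xist) were chosen after values were seen. The 20 relations to marker scores were added after the data were seen and use all 5040 pairings of the 7 arrays, or the 144 within groups once group means were removed. Medians of marker lists with each array left out were also added then. Alternatives covered pseudocount, filter, scaling, intensity trend and leaving out each array.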

Additional observations from a re-analysis of the deposited data

How the results depend on the processing

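All 248 values of the 18 kept probe sets under the alternatives lay within 1 within-group SD of the reported value. That limit shows little, because leaving out 1 array of 3 or 4 cannot move a difference further. The filter and trend settings leave a difference unchanged. Within this limit the weaker Egln3 probe set still ran from 0.14 to 1.26. Ndufa4l2 stayed between -1.73 and -1.05 and Arnt2 between -1.25 and -0.90, whereas the brightest Rgs5 probe set ran from -1.03 to 0.14. Over all probe sets limma called 1 higher and 0 lower; without an intensity trend it called 0 higher and with quantile normalization 2 higher. When each array was left out the calls were 0 to 16 higher and 0 to 2 lower, the most without wild-type mother 1. The median log2 difference was then 0.059 to 0.21 for glycolytic targets, 0.023 to 0.096 for other targets, -0.030 to 0.056 for pathway control, -0.079 to 0.285 for cytochrome c oxidase and 0.035 to 0.13 for the degradation route of RGS5, which was 0.0099 without a filter. The causes were not tested. None of the 5 pathway lists gained a called gene under these alternatives. No paired analysis was possible because the labels give the groups no shared replicate numbers. Signals near the background ceiling limit Cox4i2, the weaker Arnt2 and Egln3 probe sets and 4 probe sets of Hif1a and Arnt and 1 of Rgs5.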
